A study of Mus musculus with 4 samples.

Results

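The synovium, the membrane that lines a joint, is built largely of fibroblasts in 2 layers. The thin lining faces the joint cavity, makes lubricin and hyaluronan and is marked by genes such as Clic5, Htra4, Tspan15 and Pdpn. The sublining beneath it holds vessels, and its fibroblasts carry Thy1, Cd34 and, in the Pi16-type cells that surround vessels in many tissues, Dpp4 and Pi16. Cadherin-11 (Cdh11) holds synovial fibroblasts together, and Fap encodes a membrane protease of activated fibroblasts. These 10 genes, 10 of 22180 measured, were taken by symbol: 4 lining genes, 4 sublining genes, and Cdh11 and Fap, which were assigned to no layer. Each had a single probe set (the group of probes whose signals are summarised into 1 value) with exactly 1 gene symbol.

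Expression was read on 4 Affymetrix MoGene 2.0 ST arrays from synovium dissected around the ankle of male C57BL/6J mice aged 12 weeks. The 2 arthritic pools, each of 10 mice, came from day 10 of serum transfer arthritis, in which K/BxN serum with disease-causing autoantibodies is injected; 150 microlitres were given on days 0, 2 and 7. The 2 nonarthritic pools, each of 3 mice, came from mice given phosphate buffered saline on the same schedule, per the protocols, although their labels name K/BxN serum as well and day 0 as the time point. The groups therefore also differ in pool size and labelled day, and the effects of these cannot be told apart from that of arthritis. The comparison asks how fibroblast genes of the lining and sublining differ between inflamed and nonarthritic synovium.

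Values are log2 signals from RMA (robust multi-array average), on which a difference of 1 is a doubling. "Rose" and "fell" are used of genes with a limma adjusted p under 0.05 (Benjamini-Hochberg over all 22180 genes), and SDs are over 2 pools. The array medians ran from 6.96 to 7.15. Olfactory receptor genes, used as a yardstick for dim signal, had 95th percentiles of 6.77 to 7.36, and all 10 members lay above it on all 4 arrays. Pan-fibroblast genes such as Pdgfra, Col1a1 and Dcn were likewise bright (11 of 11 above it on all 4 arrays), as was the lubricin gene Prg4 (13.66 and 13.66 in nonarthritic, 13.27 and 13.52 in arthritic pools 1 and 2). Markers of neighbouring tissue were present too: 7 of 8 skeletal muscle and 5 of 7 adipocyte markers lay above it on all 4 arrays.

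Arthritic synovium had less Clic5, Htra4, Tspan15 and Dpp4 and more Cdh11, Pdpn and Thy1 than nonarthritic synovium. Of the 10 members, 3 rose and 4 fell, where 15.3% of all genes were called in either direction (8.72% rose and 6.62% fell) and 21.5% of the 11895 genes above the olfactory yardstick on all 4 arrays. Cd34, Pi16 and Fap did not pass the test. The values of the groups did not overlap for any of the 10 members, nor did they for 56.4% of all genes. In bulk tissue, fewer cells of a type and less RNA per cell cannot be told apart.

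**Figure D1:**
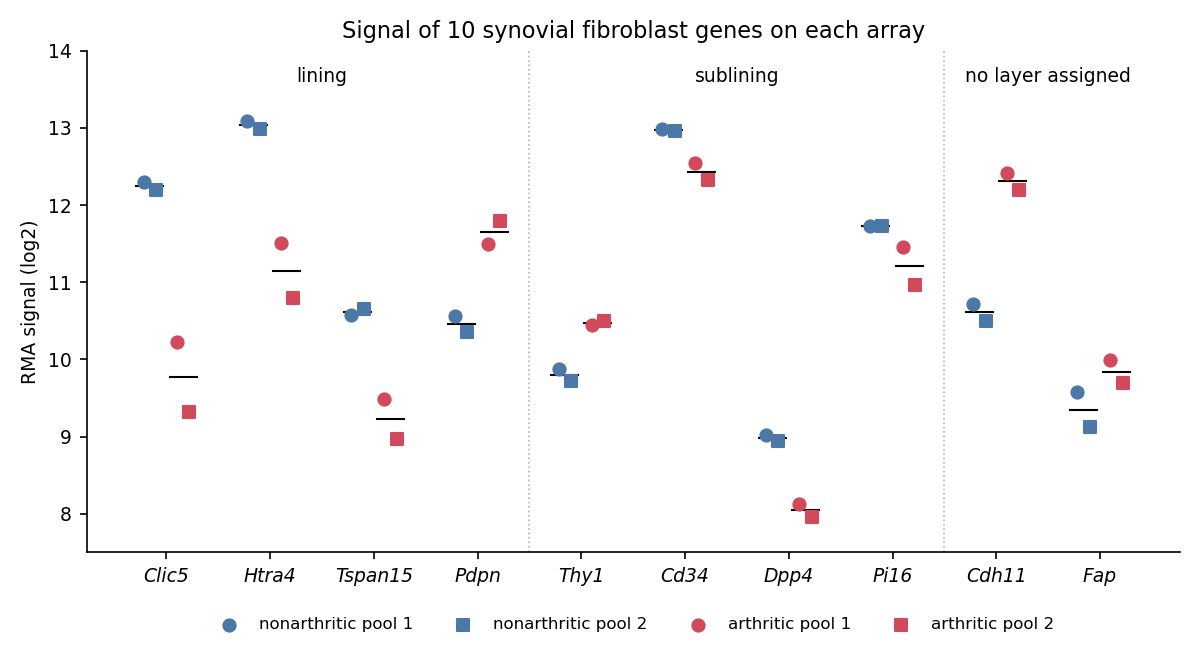
RMA signal (log2, vertical axis) of the 10 genes on each of the 4 arrays; circles are pool 1, squares pool 2, blue nonarthritic, red arthritic, and short lines group means over 2 pools. The red points of Clic5, Htra4 and Tspan15 lie well below the blue ones, those of Cdh11 and Pdpn well above, and the arthritic pools of Clic5 stand 0.90 apart.

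Among the members the largest change was that of Clic5, which encodes a chloride intracellular channel family protein that links the cell membrane to the actin skeleton. Clic5 read 12.30 and 12.20 in nonarthritic pools 1 and 2, and 10.22 and 9.32 in arthritic pools 1 and 2. The nonarthritic pools were nearly alike, and both arthritic pools were far below them, with arthritic pool 2 the lowest. Clic5 fell 5.58-fold, from 12.25 ± 0.07 to 9.77 ± 0.64 (log2 fold change -2.48 ± 0.27 SE, limma adjusted p = 0.000987). This was the 99th lowest log2 fold change of the 22180 genes.

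Htra4, a serine protease of the HtrA family, was the next. It read 13.09 and 12.98 in the nonarthritic pools and 11.51 and 10.79 in the arthritic pools. Again the groups did not overlap and arthritic pool 2 was the lower one. Htra4 fell 3.69-fold (log2 fold change -1.89 ± 0.24 SE, limma adjusted p = 0.00185).

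Tspan15 encodes a tetraspanin that escorts the membrane protease ADAM10 and steers which proteins it cuts. Its signal was 10.58 and 10.65 in the nonarthritic pools against 9.48 and 8.97 in the arthritic pools. It fell 2.62-fold (log2 fold change -1.39 ± 0.20 SE, limma adjusted p = 0.00326). In these 3 genes arthritic pool 2 lay below arthritic pool 1, by 0.90 for Clic5, 0.72 for Htra4 and 0.51 for Tspan15, while their nonarthritic pools differed by 0.07 to 0.11. The same order was found in 8 of the 10 members, Cdh11 and Fap included. The share of all genes with this order was not computed.

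Pdpn went the other way. It encodes podoplanin, a mucin-type membrane protein that binds CLEC-2 on platelets and ezrin-type proteins inside the cell, and it is also carried by lymphatic endothelium and osteocytes. Pdpn read 10.56 and 10.36 in the nonarthritic pools and 11.50 and 11.79 in the arthritic pools. Here arthritic pool 2 was the higher. Pdpn rose 2.27-fold, from 10.46 ± 0.14 to 11.65 ± 0.21 (log2 fold change 1.19 ± 0.18 SE, limma adjusted p = 0.00377).

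The calls of the lining genes depended on single arrays, as limma then had 1 residual degree of freedom and the lone pool was assumed to vary like the other group. Without nonarthritic pool 1 the adjusted p was 0.0517 for Clic5, 0.0605 for Htra4 and 0.0618 for Tspan15, and Pdpn stayed called at 0.0482. Without nonarthritic pool 2 it was 0.0769, 0.0887, 0.105 and 0.0982 for Clic5, Htra4, Tspan15 and Pdpn. Without arthritic pool 1 the 3 falling genes stayed called (0.0279 to 0.0400) and Pdpn did not (0.0556), and without arthritic pool 2 Clic5 alone stayed called (0.0495), with Htra4 at 0.0594, Tspan15 at 0.0802 and Pdpn at 0.102.

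Promoter sequence, the 250 bases before the RefSeq start of transcription (build GRCm38.p6), was at hand for 6 of the 10 members. Those of the lining genes Clic5, Tspan15 and Pdpn are shown, since the first pair fell and the last rose. Clic5 lies at chr17:44188322-44188571 on the plus strand, Tspan15 at chr10:62231219-62231468 on the minus strand and Pdpn at chr4:143299565-143299814 on the minus strand. Each is printed 5′ to 3′ along its gene, and capitals mark matches to the motifs named after them.
Clic5: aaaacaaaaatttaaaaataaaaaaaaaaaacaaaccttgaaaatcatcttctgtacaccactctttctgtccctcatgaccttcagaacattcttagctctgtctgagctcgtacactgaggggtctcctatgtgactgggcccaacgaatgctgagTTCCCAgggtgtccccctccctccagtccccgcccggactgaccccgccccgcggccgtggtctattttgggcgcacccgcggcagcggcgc
Tspan15: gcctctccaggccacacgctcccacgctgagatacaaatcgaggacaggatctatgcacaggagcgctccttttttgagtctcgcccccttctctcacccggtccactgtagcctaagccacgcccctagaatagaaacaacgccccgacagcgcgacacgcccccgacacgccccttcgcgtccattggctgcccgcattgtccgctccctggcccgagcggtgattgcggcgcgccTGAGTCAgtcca
Pdpn: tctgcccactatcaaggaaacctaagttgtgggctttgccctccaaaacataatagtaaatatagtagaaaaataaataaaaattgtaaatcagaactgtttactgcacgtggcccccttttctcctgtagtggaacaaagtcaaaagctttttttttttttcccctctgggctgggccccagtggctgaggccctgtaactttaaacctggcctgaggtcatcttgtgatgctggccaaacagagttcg
Motifs were searched on both strands: AP-1 (TGANTCA), NF-kB (GGANTTC), RUNX (TGTGGT), TEAD (GGAATG) and RBPJ (TGGGAA). The capitals in Clic5 are an RBPJ match on the opposite strand, 92 bases before the start, and those in Tspan15 an AP-1 match 12 bases before it. Pdpn held none of these 5 sets of letters in this window. Such fixed letters, those for NF-kB among them, do not cover every site a factor can bind, so sites may have been missed. The AP-1 letters in Tspan15 match at the same bases on both strands; no matches to different motifs overlapped. Of all 32851 RefSeq promoters, 21.6% held the RBPJ and 6.75% the AP-1 letters, so a match is a description of the letters only. The promoters also differed in base composition. Tspan15 was 63.2% G or C with 23 CG pairs, Clic5 52.8% with 13 and Pdpn 43.2% with 2. The median of all promoters was 52.4% and 6. Of the promoters not shown, that of Dpp4, which fell, was 43.6% with 4, close to Pdpn. It held a TEAD match, as did 12.6% of all promoters, and an RBPJ match. A link of motifs or base composition with the direction of change was not tested.

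Of the sublining genes, Thy1 rose, Dpp4 fell, and Cd34 and Pi16 did not pass. Thy1 encodes a small surface glycoprotein of sublining fibroblasts, which mouse T cells also carry. It read 9.87 and 9.72 in the nonarthritic pools and 10.44 and 10.50 in the arthritic pools, which lay closely together above both. Thy1 rose 1.60-fold (log2 fold change 0.68 ± 0.16 SE, limma adjusted p = 0.0251).

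Dpp4, also known as CD26, trims pairs of amino acids from the ends of chemokines and hormones. It read 9.02 and 8.94 in the nonarthritic pools and 8.13 and 7.96 in the arthritic pools. The spread within either group was small beside the distance between them. Dpp4 fell 1.91-fold (log2 fold change -0.94 ± 0.16 SE, limma adjusted p = 0.00701).

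Cd34 encodes a sialomucin of vascular endothelium, blood progenitors and sublining fibroblasts. It read 12.98 and 12.96 in the nonarthritic pools and 12.54 and 12.32 in the arthritic pools. The log2 fold change was -0.54 ± 0.16 SE (95% confidence interval -0.91 to -0.17), and the limma adjusted p was 0.0615. It was called under 3 alternatives: with genes of dim signal left out (adjusted p = 0.0354), with quantile normalization again (0.0365) and with a variance prior that follows intensity (0.00927).

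Pi16 encodes peptidase inhibitor 16, a membrane-bound member of the CAP superfamily. It read 11.73 in both nonarthritic pools, and 11.46 and 10.96 in the arthritic pools. The arthritic pools thus differed from each other by 0.50, about as much as the groups did. The log2 fold change was -0.52 ± 0.20 SE (interval -0.98 to -0.06) with a limma adjusted p of 0.122, and no alternative called it. Without arthritic pool 2 it was -0.27.

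Neither sublining call held with an array left out. For Thy1 the limma adjusted p was 0.0820 and 0.180 without nonarthritic pools 1 and 2, and 0.135 and 0.179 without arthritic pools 1 and 2. For Dpp4 it was 0.0691 and 0.0965, and 0.0712 and 0.117. With all 41345 probe sets fitted together it was 0.0908 for Thy1 and 0.0503 for Dpp4.

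Cdh11, a cadherin that joins synovial fibroblasts to each other and gives the lining its cohesion, had the largest rise among the members. It read 10.72 and 10.50 in the nonarthritic pools and 12.42 and 12.20 in the arthritic pools, with the same gap of 0.22 in both groups. Cdh11 rose 3.25-fold, from 10.61 ± 0.16 to 12.31 ± 0.16 (log2 fold change 1.70 ± 0.17 SE, limma adjusted p = 0.000699), the 196th highest log2 fold change of all genes. It stayed called with 3 of the arrays left out in turn and was at an adjusted p of 0.0565 without arthritic pool 2.

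Fap, which encodes fibroblast activation protein, a cell surface protease related to DPP4, read 9.58 and 9.12 in the nonarthritic pools and 9.99 and 9.69 in the arthritic pools. The highest nonarthritic and the lowest arthritic value stood only 0.11 apart. The log2 fold change was 0.49 ± 0.20 SE (interval 0.02 to 0.96) with a limma adjusted p of 0.159, and no alternative called it. Without nonarthritic pool 2 it was 0.26. Fap and its relative Dpp4 thus had estimates of opposite sign, and the difference between them was not tested.

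**Figure D2:**
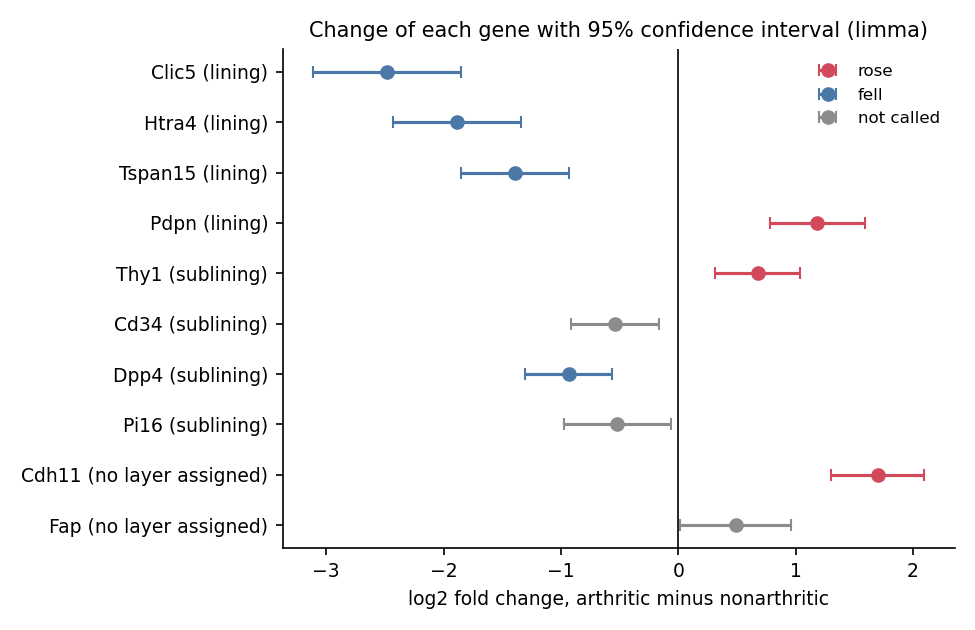
Log2 fold change of each gene (arthritic minus nonarthritic, horizontal axis) with its 95% confidence interval from limma, not adjusted for the number of genes; red rose, blue fell, grey did not pass at an adjusted p under 0.05. The lining genes run from -2.48 (Clic5) to 1.19 (Pdpn) and the sublining genes from -0.94 (Dpp4) to 0.68 (Thy1).

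Averaged over their 4 genes, lining signals were 11.63 and 11.55 in the nonarthritic and 10.68 and 10.22 in the arthritic pools. Sublining signals were 10.90 and 10.84 against 10.64 and 10.44. The mean log2 fold change was -1.14 for lining and -0.33 for sublining genes, whereas the median of all genes was 0.005. The difference of lining minus sublining was therefore lower by 0.81 in the arthritic pools, and the SD between pools of a group was 0.13, pooled over both groups. These means were given no test, since the genes were proposed with results of these data known.

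The averages hid a split within each set of 4 genes. Each of Clic5, Htra4 and Tspan15 was lower relative to each of the 4 sublining genes: in all 12 such pairs the within-array difference was lower in both arthritic pools than in both nonarthritic pools. Pdpn was higher relative to each of them, in 4 of 4 pairs. The pairs reuse the same genes on the same 4 arrays, so they are not separate observations. The share of all gene pairs that would part in this way was not computed. Among single genes, 56.4% did not overlap between the groups. Among the 12 pairs the change was largest for Clic5 against Thy1 (-3.16) and smallest for Tspan15 against Dpp4 (-0.46). Without Pdpn the layer difference changed by -1.59, and without Thy1 by -0.48; both choices were made after the data were seen.

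**Figure D3:**
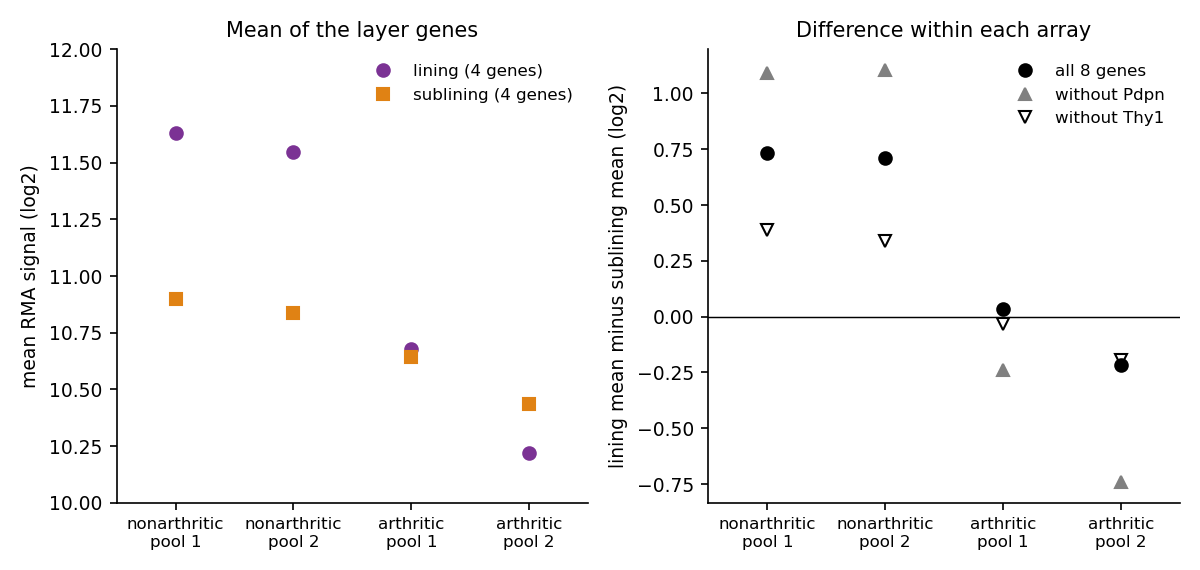
Left, mean RMA signal (log2) of the 4 lining (purple circles) and 4 sublining genes (orange squares) on each array; right, lining minus sublining mean on each array for all 8 genes, without Pdpn and without Thy1. Probe sets differ in brightness, so only changes between arrays can be read: from nonarthritic to arthritic pools the difference changed by -0.81, -1.59 and -0.48 on the log2 scale.

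Pan-fibroblast genes were taken as a further scale, also after the data were seen. Of 11 measured, 6 rose and 0 fell by limma (8 higher and 0 lower at an unadjusted p under 0.05; median log2 fold change 0.59), among them the collagen genes Col3a1 (0.80) and Col1a2 (0.71) and the proteoglycan Lum (0.99). With its probe sets averaged Col1a2 was at 0.34 and no longer called (limma adjusted p = 0.21). Only 1 of these rises was still called without nonarthritic pool 1, and 0 without any other pool. Set against the mean of these 11 genes on the same array, Clic5, Htra4 and Tspan15 changed by -2.98, -2.38 and -1.89. Cd34, Dpp4 and Pi16 changed by -1.04, -1.43 and -1.02. Thy1 changed by 0.18, Pdpn by 0.69 and Cdh11 by 1.21, and Fap by less than 0.01, with its pools overlapping. The mean of the 11 genes was itself higher by 0.495 in the arthritic pools, so an unchanged gene would read lower by as much on this scale. The members' distances from it were not tested.

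Other lining genes gave a similar mixture. Of 8 measured, 3 fell and 1 rose (median log2 fold change -0.47). Those that fell were Cd55, which encodes decay-accelerating factor (-1.44 ± 0.20 SE), the integrin gene Itga6 (-1.40 ± 0.16) and the growth factor gene Hbegf (-1.36 ± 0.24). The adhesion molecule gene Vcam1 rose (1.45 ± 0.17). Prg4 (-0.27), the hyaluronan synthase gene Has1 (-0.61), Col22a1 (-0.34) and Ugdh (-0.01) did not pass the test. Hbegf had the same order of pools as Clic5, with 11.23 and 11.11 in the nonarthritic and 10.18 and 9.45 in the arthritic pools. Leaving out single pools (first nonarthritic 1 and 2, then arthritic 1 and 2, an order kept below) left 1, 0, 2 and 0 of these lining genes that fell and 1, 0, 0 and 0 that rose.

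Of 11 other sublining genes, 4 rose and 2 fell (median 0.23). The Wnt antagonist gene Sfrp1 (1.64 ± 0.21 SE), Smoc2 (1.24 ± 0.15), the collagen gene Col14a1 (1.13 ± 0.19) and the thrombospondin gene Thbs4 (0.72 ± 0.17) rose. Clec3b, which encodes tetranectin (-1.13 ± 0.21), and Cilp (-0.81 ± 0.18) fell. The chemokine gene Cxcl12 (0.20) and Cd248 (0.26) did not pass. Without single pools 1, 0, 1 and 1 of them rose by limma and 0 fell each time.

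Of 12 genes listed for Pi16-type fibroblasts, the cells that also carry Dpp4 and Pi16, 6 fell and 1 rose (median -0.54). The 1 that rose, Col15a1 (0.83 ± 0.20 SE), is not particular to these cells and also marks other fibroblasts. How particular the genes that fell are to these cells was not tested. Efhd1 (-2.22 ± 0.21; -1.10 with its probe sets averaged), Ly6c1 (-1.62 ± 0.31), Limch1 (-1.43 ± 0.17) and the chemokine decoy receptor gene Ackr3 (-1.02 ± 0.20) fell most. Dpt (-0.07), Mfap5 (0.45) and Wnt2 (0.11) did not pass. Ly6c1 has close copies in its gene family that may share its probes, and endothelial cells and monocytes carry it too. It read 6.42 in arthritic pool 2, below the olfactory yardstick, so the size of its change is uncertain. Without single pools 2, 0, 3 and 1 of these genes fell and 1, 0, 0 and 0 rose.

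Activated fibroblast genes rose in 9 of 13 cases and 0 fell by limma, with a median of 2.13 (11 higher and 0 lower at an unadjusted p under 0.05). In bulk tissue, signal from other cells cannot be told from that of fibroblasts, and its part in these rises was not tested. The collagenase gene Mmp13 (3.78 ± 0.74 SE), Il6 (2.69 ± 0.53), Lrrc15 (2.67 ± 0.33) and the RANK ligand gene Tnfsf11 (2.65 ± 0.33) rose most. Mmp13 read 10.59 and 7.72 in nonarthritic pools 1 and 2. Il6 read 6.61 and 4.83 there, below the olfactory yardstick, so the size of its change is uncertain. Tnfsf11 read 7.38 and 6.21 there, with nonarthritic pool 2 below the yardstick. Without nonarthritic pool 2 Mmp13 changed by 2.35. Icam1 (0.58), Lif (0.87), Inhba (0.23) and Acta2 (-0.30) did not pass, nor did Fap, as above. Without single pools 8, 5, 3 and 0 rose.

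**Figure D4:**
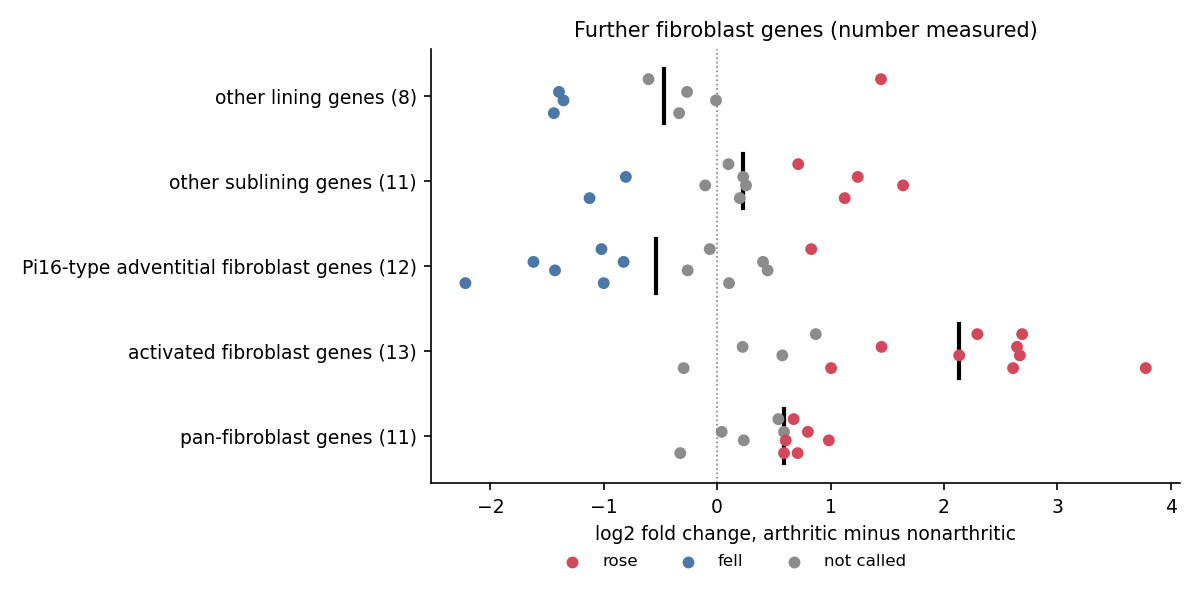
Log2 fold change (arthritic minus nonarthritic) of further fibroblast genes, 1 point a gene, by list with the number measured; red rose, blue fell, grey did not pass, and black bars are medians. The medians run from -0.54 for Pi16-type genes to 2.13 for activated fibroblast genes.

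Of 60 relatives and partners of the members in 9 lists, 11 were called (18.3%), near the 15.3% of all genes. Of 15 cadherin and catenin genes 2 rose and 2 fell: N-cadherin, Cdh2, rose by 1.51 ± 0.18 (0.84 with its probe sets averaged) and Cdh3 by 0.61 ± 0.17 on the log2 scale, and Cdh13 (-1.31 ± 0.18 SE) and Cdh19 (-2.39 ± 0.24), a gene of Schwann cells, fell. Both arthritic values of Cdh19, 5.95 and 5.23, lay below the olfactory yardstick, so the size of its change is uncertain. The catenins that tie cadherins to actin, Ctnnb1 (0.41), Ctnna1 (0.19) and Ctnnd1 (0.08), did not pass. Beside Clic5, its relative Clic1 rose (0.82 ± 0.19, 1 of 4 CLIC genes), and Clic4 was at 0.12. Beside Htra4, the mitochondrial Htra2 rose (0.88 ± 0.19, 1 of 3), with Htra1 at 0.31 and Htra3 at -0.53. Without single pools 1, 0, 1 and 0 cadherin genes rose and 1, 0, 2 and 1 fell, and no CLIC or HTRA gene was called.

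Of 6 genes for ADAM10 and the other tetraspanins that bind it, 0 were called by limma (1, Tspan33 at 0.53, at an unadjusted p under 0.05), and Adam10 itself was at 0.27 ± 0.16 SE. Of 9 partners of podoplanin, 0 were called (1, Rdx at -0.44, at an unadjusted p under 0.05). Clec1b, the gene of CLEC-2, read 5.21 and 5.57 in the nonarthritic and 5.14 and 5.23 in the arthritic pools, below the olfactory yardstick on every array. Of 7 relatives of DPP4 and FAP, Dpp9 rose (0.74 ± 0.19) and 0 fell (4 higher and 0 lower at an unadjusted p under 0.05). Of 6 CAP superfamily relatives of Pi16, Glipr2 rose (1.46 ± 0.18) and Crispld1 fell (-1.50 ± 0.26). Crispld1 read 6.68 in arthritic pool 2, below the olfactory yardstick, so the size of its change is uncertain. Of 7 integrin and syndecan genes whose products bind Thy1, the leukocyte integrin genes Itgb2 (0.73 ± 0.17) and Itgam (0.62 ± 0.17) rose. Of 3 genes of the CD34 family and its selectin ligand sulphation, 0 were called (1 higher and 1 lower at an unadjusted p under 0.05), with Podxl at -0.11. Without nonarthritic pool 1, 1 CAP gene still rose; otherwise no relative in this paragraph was called with a pool left out.

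Other cell types that carry Thy1, Dpp4, Cd34 or Pdpn were followed by their own markers, and no list was matched to the other members. Their markers are given as summed signal (log2 of the sum of linear signals) and as counts. T cell markers, relevant to Thy1 and Dpp4, had 0 of 9 called by limma (2 higher and 0 lower at an unadjusted p under 0.05), and 4 of 9 lay below the olfactory yardstick on every array. Their summed signal was 10.02 and 10.07 in the nonarthritic and 10.23 and 10.21 in the arthritic pools; Cd3e read 7.31, 7.67, 7.77 and 7.73. Blood endothelial markers, relevant to Cd34, rose in 2 of 10 cases (Kdr at 0.73 and Tie1 at 0.82) and 0 fell by limma (3 higher and 1 lower at an unadjusted p under 0.05), with sums of 13.78 and 13.73 against 14.09 and 13.77; Pecam1 was at 0.03. Neither rise was called with a pool left out. Mast cell markers, another source of Cd34, fell in 3 of 7 cases (1, 0, 2 and 0 without single pools). Their part in the changes of Thy1, Dpp4 and Cd34 was not tested.

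Lymphatic endothelial markers, relevant to Pdpn, fell in 2 of 5 cases (Lyve1 at -2.59, which macrophages also carry, and Reln at -1.08; 0, 0, 2 and 1 without single pools). Their sums were 13.52 and 13.50 against 12.19 and 11.32. Lyve1, the brightest of them in the nonarthritic pools, weighs most in these sums (13.03 and 13.04 against 10.95 and 9.94). Prox1 was at 0.04, Flt4 at 0.055 and Mmrn1 at -1.15, none of them called. Osteocyte and osteoblast markers fell in 4 of 7 cases (0, 1, 2 and 0 without single pools). In neither list did a marker rise by limma, also at an unadjusted p under 0.05 (0 higher in both). Of the osteocyte and osteoblast markers, 3 of 7 lay above the olfactory yardstick on all 4 arrays. The part of these cells in the change of Pdpn was not tested.

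Markers of neighbouring tissue moved both ways. Skeletal muscle markers fell in 8 of 8 cases, with sums of 14.70 and 15.15 in the nonarthritic and 12.31 and 11.72 in the arthritic pools. Adipocyte markers fell in 7 of 7, with sums of 14.14 and 14.13 against 12.28 and 11.76. Arthritic pool 2 was the lower of the arthritic pools in both. Chondrocyte markers rose in 4 of 7 cases (Matn3 at 2.31 and the aggrecan gene Acan at 2.03 the most) and fell in 2, Col10a1 (-3.93) and Chad (-3.62), with a median of 0.80. Matn3 read 6.57 and 6.26 in the nonarthritic pools, below the olfactory yardstick, and 9.33 and 8.11 in the arthritic pools, so the size of its change is uncertain. Schwann cell markers fell in 3 of 4 and mural cell markers in 2 of 8 cases. Neutrophil markers rose in 7 of 7, with sums of 10.71 and 10.25 against 13.52 and 13.71, and macrophage markers rose in 2 and fell in 1 of 10. Only 3 of the 7 neutrophil markers lay above the olfactory yardstick on all 4 arrays, so the sizes of the other neutrophil rises are uncertain. Without single pools 8, 5, 8 and 3 muscle and 5, 4, 6 and 3 adipocyte markers fell, and 7, 6, 6 and 3 neutrophil markers rose. In the same order 1, 1, 1 and 1 chondrocyte markers rose and 2, 2, 2 and 2 fell, 1, 0, 1 and 1 Schwann cell and 1, 0, 1 and 0 mural cell markers fell, and 0 macrophage markers rose each time by limma while 1, 0, 1 and 0 fell. Their part in the changes of the members, those of Clic5, Htra4 and Tspan15 included, was not tested.

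**Figure D5:**
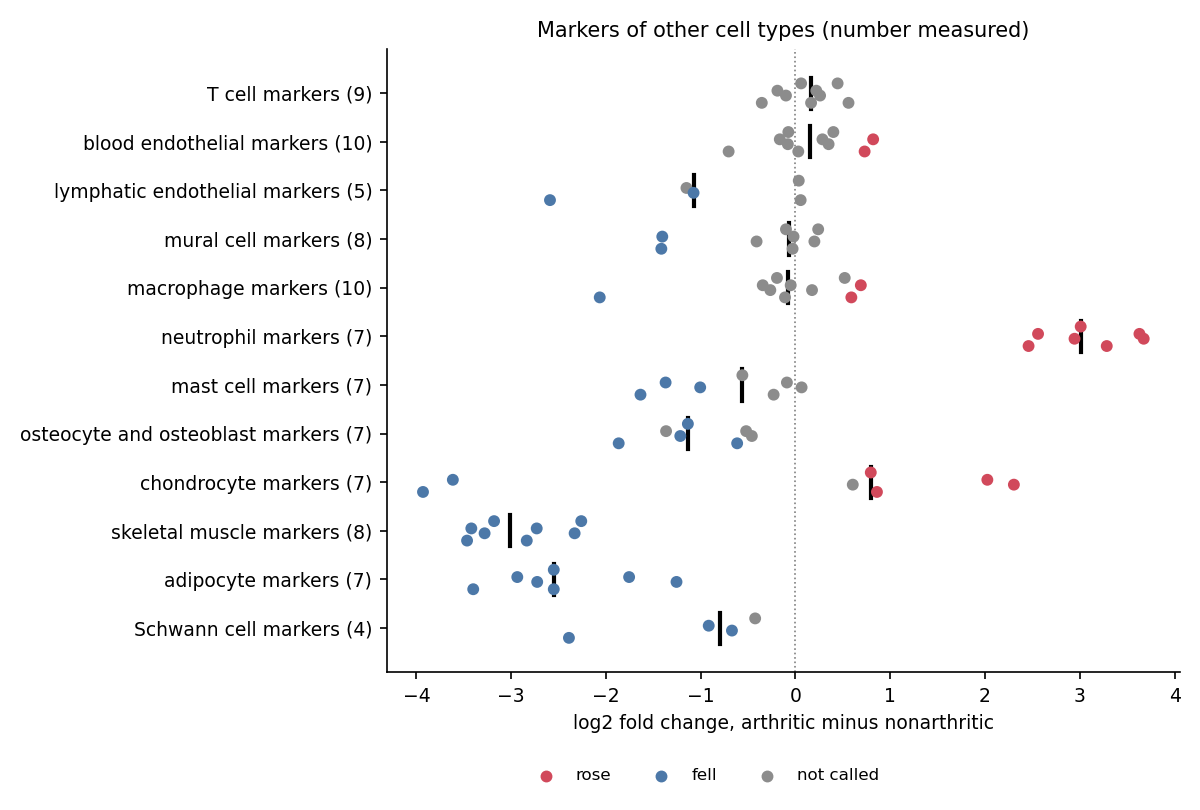
Log2 fold change (arthritic minus nonarthritic) of markers of other cell types, 1 point a gene, by cell type with the number measured; red rose, blue fell, grey did not pass, and black bars are medians. Muscle (median -3.01) and adipocyte markers (-2.55) lie to the left, neutrophil markers (3.01) to the right, and T cell markers around 0.16.

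The genes most like Clic5 and Cdh11 over the 4 arrays were sought among 13804 genes above the dim signal of olfactory receptor genes, by Euclidean distance of values centred on each gene's mean. Nearest to Clic5 were Cpe, which encodes carboxypeptidase E (distance 0.04), Lyve1 (0.16) and Adhfe1 (0.18). Cpe read 11.90 and 11.76 in the nonarthritic and 9.79 and 8.92 in the arthritic pools, with arthritic pool 2 again the lowest. Nearest to Cdh11 were Dctd, which encodes deoxycytidylate deaminase (0.07), the ephrin receptor gene Ephb3 (0.09) and Hcar2 (0.11). The points compared are 4 arrays in 2 groups, so the distance includes the difference between the groups.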

How the data were processed

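Per the labels, 500 ng of total RNA per pool was labelled for each array. The authors deposited log2 signals after RMA, with 2 decimals. RMA, Affymetrix Power Tools and Affymetrix Expression Console are named, per the submitters' processing notes, with their versions not given in the sources used here. That the scale is log2 follows from its range of 2.89 to 14.27. Of 41345 probe sets, 23521 had 1 gene symbol in the platform table, 1814 several and 16010 none. Each gene was represented by its single-symbol probe set with the highest mean, which left 22180 genes.

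Arthritic and nonarthritic pools were compared with limma 3.58.1 in R 4.3.3 (lmFit and eBayes, 2-sided, no block; 2 residual and 5.98 prior degrees of freedom), after tests on simulated data. Pools are biological replicates per the labels' design text; p-values measure the spread between pools, not mice, and the number of arrays limits the precision. Alternatives were array centring, quantile normalization, averaged probe sets, all probe sets fitted, a filter on dim genes, other variance priors, a replicate block and leaving out each pool.

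The members and the 26 further lists (202 of 213 genes measured) were chosen with earlier results of these data known. From each list up to 4 called genes a direction were named, those with the largest change, and other genes to show a family. Promoter sequences come from RefSeq (GRCm38.p6), matched by symbol.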

Additional observations from a re-analysis of the deposited data

How the results depend on the processing

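All 10 members kept their sign under all 12 alternative settings. Log2 fold changes ran from -2.93 to -2.03 for Clic5, -2.25 to -1.53 for Htra4, -1.65 to -1.14 for Tspan15, 1.04 to 1.33 for Pdpn and 1.59 to 1.81 for Cdh11. They ran from 0.60 to 0.77 for Thy1, -1.02 to -0.84 for Dpp4, -0.65 to -0.43 for Cd34, -0.77 to -0.27 for Pi16 and 0.26 to 0.72 for Fap. The mean change of lining genes ran from -1.37 to -0.91, that of sublining genes from -0.43 to -0.23, and the layer difference from -0.94 to -0.69. The layer difference was -1.59 with Pdpn and -0.48 with Thy1 left out, both chosen after seeing the data. With 1 pool left out, 0 to 2 members rose and 0 to 3 fell, and over all genes 47 to 637 rose and 105 to 584 fell, against 1933 and 1469 with all 4 pools; fewer arrays leave 1 residual degree of freedom. With all 41345 probe sets fitted together, 685 rose and 781 fell, and 2 members rose and 3 fell. Rises made up 56.8% of all calls, 67.1% once arrays were centred on their medians, 46.7% with all probe sets fitted together and 30.9% to 52.2% with 1 pool left out.

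Both groups have pools numbered 1 and 2, but nothing in the labels ties equal numbers together, and the deviations of equal numbers correlated at 0.18 across genes. With the pool number as a replicate block, 1216 genes rose and 1027 fell, and 2 members rose and 4 fell, Thy1 being at an adjusted p of 0.0557 (limma). No detection calls were used, so a low signal cannot be told from background.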
